A study of Homo sapiens with 6 samples.

Results

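The identity of a B cell rests on a small set of transcription factors, and 10 of them were followed in SU-DHL-2 cells cultured with or without IL-17A. They were PAX5, EBF1, SPIB and POU2AF1, which set and keep the B-cell program, BCL6, BACH2 and IRF4, which act in the germinal centre and at its exit, PRDM1 and XBP1, which drive plasma-cell differentiation, and ZBTB32, a BTB zinc-finger repressor. The first 9 were taken as known germinal-centre and plasma-cell regulators, and ZBTB32 was chosen by its rise at 2 probes of these same arrays. The 10 genes were part of the 19740 genes that the arrays could name, and all 10 were measured, by 15 probes that each passed the filter on dim signals.

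SU-DHL-2 is an established cell line of diffuse large B-cell lymphoma (DLBCL), so that the groups stand for 1 clonal tumor line in culture. The cells of 3 samples were cultured with IL-17A at 200 pg/ml for 72 h, and the 3 control samples were cultured without it. IL-17A is a cytokine of Th17 cells, and the arrays addressed which genes respond to it in lymphoma cells. RNA of each sample was labeled with Cy3 and hybridized to 1 Agilent one-colour Whole Human Genome array.

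Values below are log2 signals after quantile normalization, on which a difference of 1 is a doubling. A change was called when limma gave a Benjamini-Hochberg adjusted p under 0.05 over all 23945 tested probes, and "rose" and "fell" are kept for such calls. A second rule, from the study's methods, asked for a fold change of at least 1.5 with an unadjusted p under 0.05. Those methods also name a false discovery rate under 0.05. The labels do not say whether the samples came from separate cultures, so the p-values measure the spread between these samples only. Between 23570 and 24077 probes were detected on an array and no spot was saturated. The 3 controls were scanned together with IL-17A replicate 1, whereas IL-17A replicates 2 and 3 formed another scan, so a value within the first scan compares 1 array with 3.

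In a germinal-centre B cell, BCL6 represses PRDM1 and other genes of plasma-cell differentiation, and BACH2 represses PRDM1 as well. At the exit from the germinal centre IRF4 accumulates, PRDM1 (Blimp-1) is induced and shuts down PAX5, BCL6 and SPIB, and XBP1 then expands the secretory pathway. ZBTB32 is known as a partner of PRDM1 in repressing target genes and as a brake on memory B-cell recall responses.

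The line carried the markers of its label. The B-cell genes CD79A, CD79B, MS4A1, CD22 and PAX5 were well above background on all 6 arrays, as were the plasma-cell genes SDC1, CD38, TNFRSF17, MZB1 and JCHAIN. Both programs were therefore measured in every sample.

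Promoters of ZBTB32, PRDM1, XBP1 and BCL6 are shown here, because several of the members act on one another. That of EBF1, which also had a probe that rose, is not printed. Each line gives the 250 bases before an annotated start, 5′ to 3′ on the strand of the gene (RefSeq, GRCh38.p14). Capitals mark matches, on either strand, to 6 short motifs: TTCNNGGAA for BCL6, TGANTCA for BACH2, CCCNNGGG for EBF1, GGAANNGAA for the composite site of SPIB with IRF4, ACGTG for XBP1 and ATGCAAAT for the octamer that POU2AF1 occupies through its partners. CACGT is ACGTG read on the opposite strand.
ZBTB32 (chr19:35704308-35704557, plus strand): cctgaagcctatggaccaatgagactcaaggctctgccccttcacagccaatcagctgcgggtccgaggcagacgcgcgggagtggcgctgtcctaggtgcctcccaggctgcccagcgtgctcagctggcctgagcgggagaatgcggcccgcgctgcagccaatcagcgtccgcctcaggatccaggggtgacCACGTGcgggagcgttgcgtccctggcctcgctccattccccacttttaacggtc
PRDM1, annotated start 1 (chr6:106086086-106086335, plus strand): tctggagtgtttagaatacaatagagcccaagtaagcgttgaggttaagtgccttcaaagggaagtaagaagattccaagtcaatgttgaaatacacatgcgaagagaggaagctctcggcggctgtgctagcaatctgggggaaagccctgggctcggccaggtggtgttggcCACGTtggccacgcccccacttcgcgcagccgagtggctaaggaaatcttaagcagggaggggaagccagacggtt
PRDM1, annotated start 2 (chr6:106098691-106098940, plus strand): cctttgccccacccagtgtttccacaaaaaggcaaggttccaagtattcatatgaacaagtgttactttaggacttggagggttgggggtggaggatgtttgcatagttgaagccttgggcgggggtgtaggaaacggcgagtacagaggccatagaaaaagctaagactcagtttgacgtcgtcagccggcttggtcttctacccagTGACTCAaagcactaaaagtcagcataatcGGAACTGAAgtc
XBP1, annotated start 1 (chr22:28800570-28800819, minus strand): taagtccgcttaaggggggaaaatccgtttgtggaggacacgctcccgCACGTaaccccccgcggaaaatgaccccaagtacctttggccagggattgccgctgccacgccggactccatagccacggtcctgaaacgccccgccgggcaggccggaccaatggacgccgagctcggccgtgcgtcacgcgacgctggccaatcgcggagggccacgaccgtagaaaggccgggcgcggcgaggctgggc
BCL6, annotated start 1 (chr3:187745469-187745718, minus strand): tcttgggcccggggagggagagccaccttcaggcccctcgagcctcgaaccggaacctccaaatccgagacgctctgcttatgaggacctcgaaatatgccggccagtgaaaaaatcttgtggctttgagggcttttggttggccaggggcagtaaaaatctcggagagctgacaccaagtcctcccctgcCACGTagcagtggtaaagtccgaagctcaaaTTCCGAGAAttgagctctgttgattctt

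The XBP1 core ACGTG occurred in each of these promoters except that of the second PRDM1 start. In ZBTB32 the matches on both strands overlapped in a single CACGTG that began 55 bases from the start. It is a short motif, present at 5 of all 12 member starts and in 18.5% of the 35116 promoters of the same length. The BACH2 motif lay 42 bases from the second PRDM1 start, beside a SPIB-IRF4 composite, and these motifs were held by 6.57% and 6.58% of all promoters. The BCL6 promoter held a match to the motif of BCL6 itself, which 3.86% of all promoters had. Promoters were found for 9 of the 10 members, at 12 starts. Among those not printed, only PAX5 held ACGTG, so its frequency in the printed lines depends on which starts were shown. EBF1 held the composite and SPIB the EBF1 motif (17.1% of all promoters). The second BCL6 start held the BACH2 motif, and the second XBP1 start, IRF4 and BACH2 held none of the 6 motifs. The octamer matched no member and 1.63% of all promoters. The bare ETS core GGAA, which lies inside the composite, was left unmarked because 92.7% of promoters hold it. Such matches describe letters only, and binding was not measured.

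**Figure D1:**
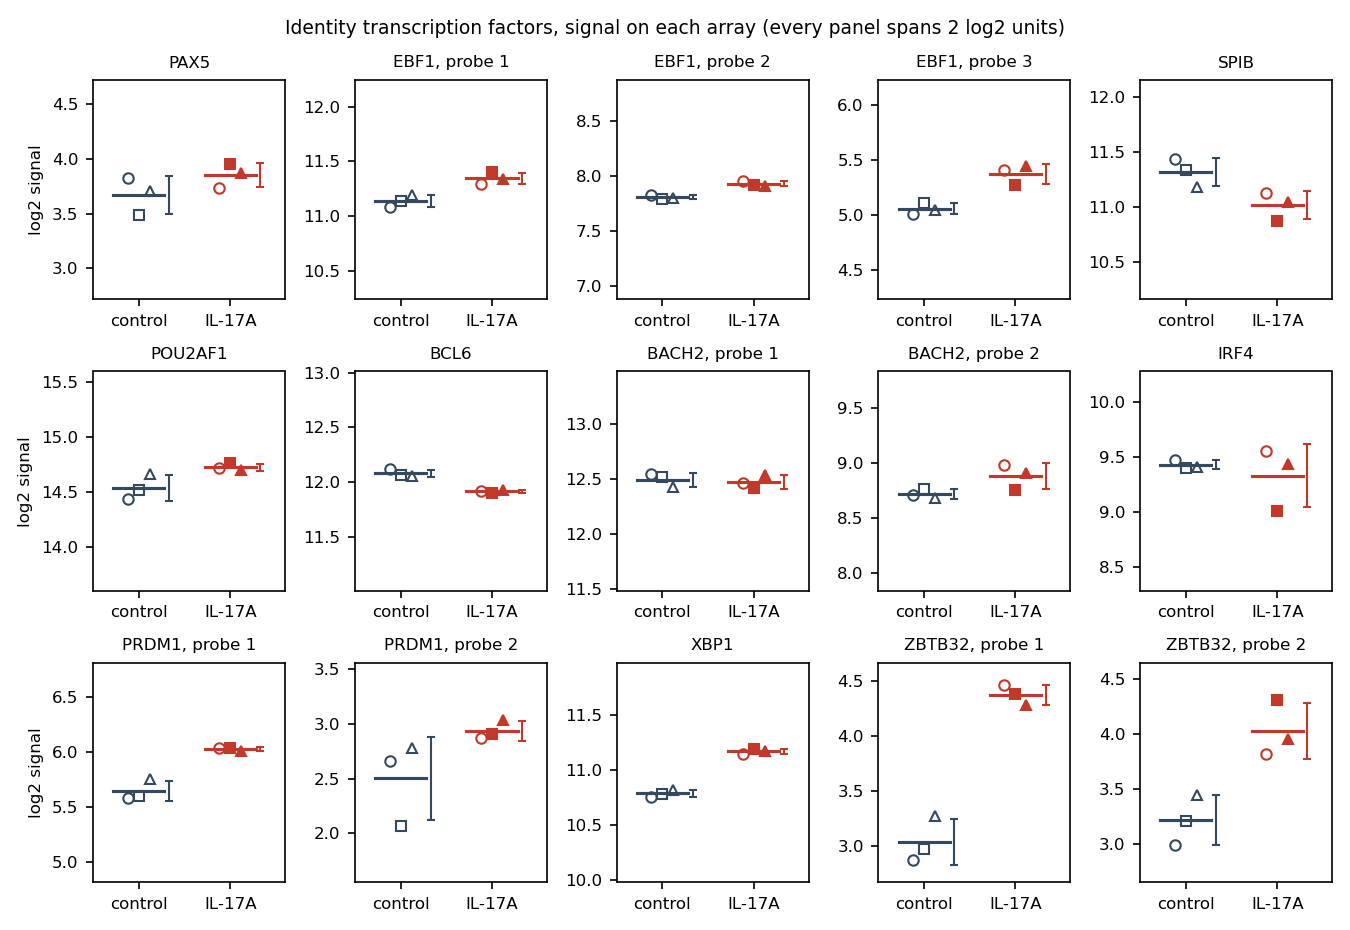
Log2 signal (vertical axes, quantile normalized) of the 15 probes of the 10 transcription factors on the 3 control and 3 IL-17A arrays; circles, squares and triangles are replicates 1, 2 and 3, open symbols are arrays of the first scan and filled symbols those of the second, and each bar is the mean with its SD beside it, with the probes of a gene numbered from the brightest. Every panel spans the same 2 log2 units, so the shift of ZBTB32 (1.34 at probe 1) can be read against that of XBP1 (0.38) and the overlap of the groups at IRF4.

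Of the 13 probes of the 9 members other than ZBTB32, 3 rose with IL-17A and 0 fell, against 4.43% and 3.17% of all tested probes that rose and fell. The 3 probes belonged to XBP1, PRDM1 and EBF1, and the probes of BCL6 and SPIB were lower with an unadjusted limma p under 0.05. No probe of the 9 members passed the rule of 1.5-fold with an unadjusted p under 0.05, which 2.18% of all tested probes passed, and the largest of their 13 differences was 0.43, at a dim PRDM1 probe. The groups did not overlap at 7 probes that were higher and at 2 that were lower, against 21.0% and 18.0% of all tested probes. The median log2 fold change of the 13 probes was 0.18, and that of all tested probes was 0.0070.

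PRDM1 and XBP1 were both higher with IL-17A, whereas IRF4, which plasma-cell differentiation also needs, had a difference of -0.10 with overlapping groups. XBP1, the transcription factor that builds the secretory machinery, had log2 signals of 11.15, 11.19 and 11.17 with IL-17A and of 10.76, 10.78 and 10.82 in the controls. The groups did not overlap, and each lay within a narrow band. XBP1 thus rose by 0.38 (SE 0.04, n = 3 per group), which is 1.30-fold, at an adjusted p = 0.0286 (limma, two-sided).

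XBP1 was measured by 10 spots of the same probe (A_23_P120845) on every array, which shows the spread between spots within an array. The spots of an array share 1 labeled RNA, so they are not replicates of the treatment and do not show error between arrays. Before normalization, the spots of the 3 IL-17A arrays had intensities from 1843 to 2574, and those of the 3 controls from 1584 to 1839. No spot of one group lay inside the range of the other, though the margin was small. The dimmest IL-17A spots were on replicate 1, where the 10 spots had an SD of 0.13 on the log2 scale, against 0.016 on replicate 3. The probe reports XBP1 mRNA as a whole, and the splicing that activates XBP1 was not measured.

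**Figure D2:**
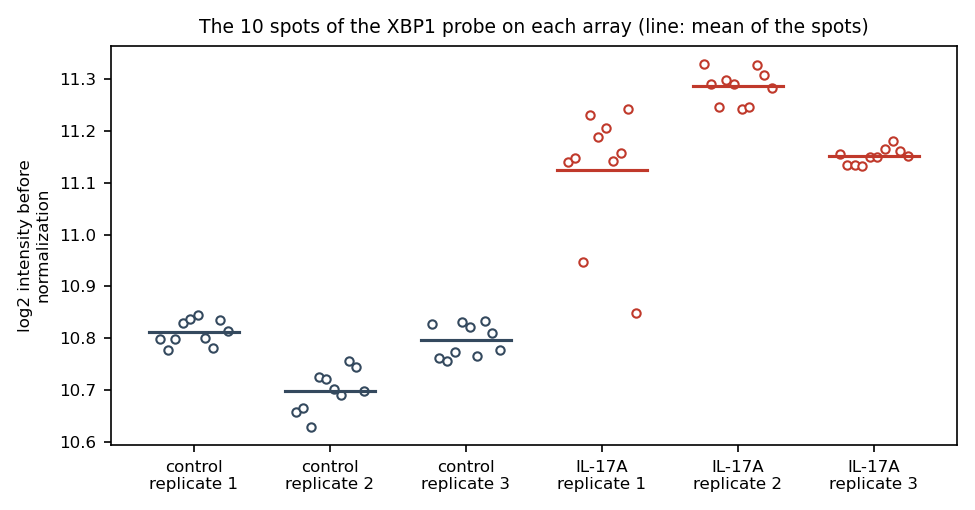
Log2 intensity before normalization (vertical axis) of each of the 10 XBP1 spots on the 6 arrays (horizontal axis); lines are the means of the spots. All IL-17A spots lie above all control spots, and the widest scatter is on IL-17A replicate 1 (SD 0.13).

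PRDM1, the repressor that ends the B-cell program, was measured by 2 probes that share the transcript. Its brighter probe (A_33_P3342081) had log2 signals of 6.04, 6.03 and 6.00 with IL-17A and of 5.58, 5.60 and 5.75 in the controls, with no overlap. PRDM1 rose by 0.38 (SE 0.06, n = 3 per group) at this probe, 1.30-fold, with an adjusted p = 0.0327. Its intensities before normalization, 63.4 to 67.0 with IL-17A and 46.5 to 51.8 without, did not overlap either.

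The dimmer PRDM1 probe (A_23_P350451) lay close to background, with 2 of the 3 controls well above it. Its log2 signals were 2.87, 2.91 and 3.04 with IL-17A and 2.66, 2.07 and 2.78 in the controls. They were higher on every IL-17A array, by 0.43 (SE 0.19), but did not pass the test (adjusted p = 0.188), and control replicate 2 was the low one. Without that array the difference was 0.22 (adjusted p = 0.216). Before normalization, this probe had intensities of 7.05 to 7.97 with IL-17A and 4.09 to 7.04 in the controls, so the groups nearly touched. Both probes pointed the same way with different precision.

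The size of the XBP1 change varied little between settings, from 0.36 to 0.42 over the 17 alternatives. That of the brighter PRDM1 probe ran from 0.17 to 0.44, and the calls of both varied. When each array was left out in turn, the log2 fold change of XBP1 stayed between 0.37 and 0.40. At the brighter PRDM1 probe it stayed between 0.35 and 0.44, and both had an unadjusted p under 0.05 in 6 of 6 cases. The adjusted p stayed under 0.05 without control replicate 3 (0.0477 for both) and lay above it in the other 5 cases, at up to 0.135. Within the first scan, the changes were 0.36 for XBP1 (adjusted p = 0.0929) and 0.40 for PRDM1 (adjusted p = 0.118). Normexp correction, which adds an offset of 50 to every intensity, left XBP1 at 0.36 and lowered PRDM1 to 0.17 at its brighter probe (adjusted p = 0.0172) and to 0.027 at the dimmer one.

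IRF4, which is needed both for B-cell activation and for plasma-cell differentiation, had log2 signals of 9.55, 9.01 and 9.43 with IL-17A and of 9.48, 9.40 and 9.41 in the controls. The groups overlapped, and IL-17A replicate 2 was the array that stood below the others. The difference of -0.10 (SE 0.14) had a 95% interval from -0.46 to 0.26 and did not pass the test (adjusted p = 0.674). It turned to 0.064 without IL-17A replicate 2 and to 0.12 within the first scan.

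Among the B-cell identity factors, EBF1 was higher at all 3 of its probes. EBF1 opens the chromatin of B-lineage genes together with PAX5. At its brightest probe (A_32_P197561) the log2 signals were 11.29, 11.40 and 11.34 with IL-17A against 11.08, 11.14 and 11.20, a difference of 0.20 (SE 0.05, adjusted p = 0.0616). The middle probe (A_24_P156501) had 7.96, 7.92 and 7.91 against 7.83, 7.79 and 7.80, a difference of 0.12 (SE 0.04, adjusted p = 0.0867) that was 0.073 with normexp. The groups were apart at both, by little, and at the middle probe the intensities before normalization overlapped.

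The dimmest EBF1 probe (A_33_P3241521) was the one that passed the test. Its log2 signals were 5.41, 5.27 and 5.45 with IL-17A and 5.01, 5.11 and 5.05 without, so EBF1 rose here by 0.32 (SE 0.06), 1.25-fold, at an adjusted p = 0.0422. This call was lost whichever array was left out, with adjusted p-values from 0.0724 to 0.138 and log2 fold changes from 0.28 to 0.37, and within the first scan (0.35, adjusted p = 0.133). With normexp the change was 0.10 (adjusted p = 0.111). The 3 probes read the same gene and are not independent evidence.

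PAX5, the factor that commits cells to the B lineage, had log2 signals of 3.73, 3.95 and 3.87 with IL-17A and of 3.83, 3.48 and 3.70 in the controls. The groups overlapped. The difference was 0.18 (SE 0.11, adjusted p = 0.289), with a 95% interval from -0.08 to 0.44, and it was 0.064 within the first scan, 0.094 with 75th percentile scaling, 0.0098 with normexp and 0.087 without control replicate 2. The single PAX5 probe (A_23_P71624) had intensities of 10.97 to 15.5, above the 4.46 to 4.61 at which signals began to count as well above background.

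POU2AF1 (OCA-B), the coactivator of octamer-binding factors that germinal centers require, had 14.71, 14.76 and 14.70 with IL-17A and 14.43, 14.51 and 14.66 without. The groups lay apart, with control replicate 3 closest to the IL-17A arrays, but the intensities before normalization overlapped. The difference of 0.19 (SE 0.07, 95% interval 0.02 to 0.35) did not pass the test (adjusted p = 0.125). It depended on the normalization, with 0.077 after 75th percentile scaling (adjusted p = 0.528) and 0.10 without normalization (adjusted p = 0.523).

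SPIB, an ETS factor of B cells that PRDM1 is known to repress, had the largest negative difference of the members. Its log2 signals were 11.13, 10.87 and 11.04 with IL-17A and 11.44, 11.34 and 11.18 in the controls. Every IL-17A array was below every control, by 0.30 on average (SE 0.09, 95% interval of the difference -0.54 to -0.07), but the adjusted p = 0.0994 missed the threshold. Within the first scan the difference was -0.19 (adjusted p = 0.418).

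BCL6, the master repressor of the germinal centre, was lower on each IL-17A array by a small and even margin. The log2 signals were 11.92, 11.90 and 11.93 with IL-17A and 12.12, 12.07 and 12.06 in the controls. The difference of -0.16 (SE 0.04, 95% interval -0.25 to -0.07) had an adjusted p = 0.0547 and was -0.16 within the first scan as well. The adjusted p passed the threshold under 5 of 17 alternatives, and the intensities before normalization overlapped, at 3797 to 4080 with IL-17A and 4036 to 4644 without.

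BACH2, the repressor that delays plasma-cell differentiation, was measured by 2 probes that did not move together. The brighter (A_23_P30634) had 12.47, 12.42 and 12.54 with IL-17A and 12.55, 12.52 and 12.43 without, a difference of -0.02 (SE 0.05, adjusted p = 0.812, 95% interval -0.15 to 0.11). The other (A_33_P3302916) had 8.98, 8.75 and 8.91 against 8.70, 8.76 and 8.68, a difference of 0.16 (SE 0.07, adjusted p = 0.168) that was 0.27 within the first scan. The groups overlapped at both probes.

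ZBTB32 is given without a test, since it was selected on this very contrast. At probe 1 (A_23_P131024) the log2 signals were 4.46, 4.38 and 4.28 with IL-17A and 2.87, 2.97 and 3.27 in the controls, a difference of 1.34 (SE 0.11) or 2.53-fold. At probe 2 (A_33_P3289167) they were 3.82, 4.31 and 3.96 against 2.99, 3.21 and 3.45, a difference of 0.81 (SE 0.17) or 1.75-fold. The groups lay apart at both probes, and control replicate 3 was the highest control at each.

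The ZBTB32 signals were dim, though well above background on all 6 arrays at both probes. Intensities at probe 1 were 19.0 to 21.6 with IL-17A and 7.68 to 9.74 without. With normexp, whose offset of 50 exceeds such intensities, the differences were 0.21 and 0.13. That setting also started from another spot signal and background correction, and the part of the offset alone was not tested. Leaving out each array in turn gave 1.26 to 1.46 at probe 1 and 0.67 to 0.93 at probe 2, and the differences within the first scan were 1.43 and 0.60.

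The named genes whose signals followed ZBTB32 probe 1 most closely over the 6 arrays were BCAS1, AQP7P1, MRI1, FGFR2 and FUT3. Likeness was the summed absolute difference of the log2 signals after each gene was centred on its mean, with a low value for a close match, and it was 0.86 for BCAS1 and 1.23 to 1.41 for the other 4. BCAS1 had log2 signals of 5.16, 5.14 and 4.97 with IL-17A and of 3.94, 3.97 and 3.99 without, a difference of 1.12. AQP7P1 and FGFR2 were well above background on 2 of the 3 controls, FUT3 on 1 and MRI1 on 0, so MRI1 passed the filter through the IL-17A arrays alone. AQP7P1 is a pseudogene that closely resembles AQP7, so its signal is uncertain. ZBTB32 was chosen for its rise, so a search for like patterns returns genes that were higher with IL-17A.

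**Figure D3:**
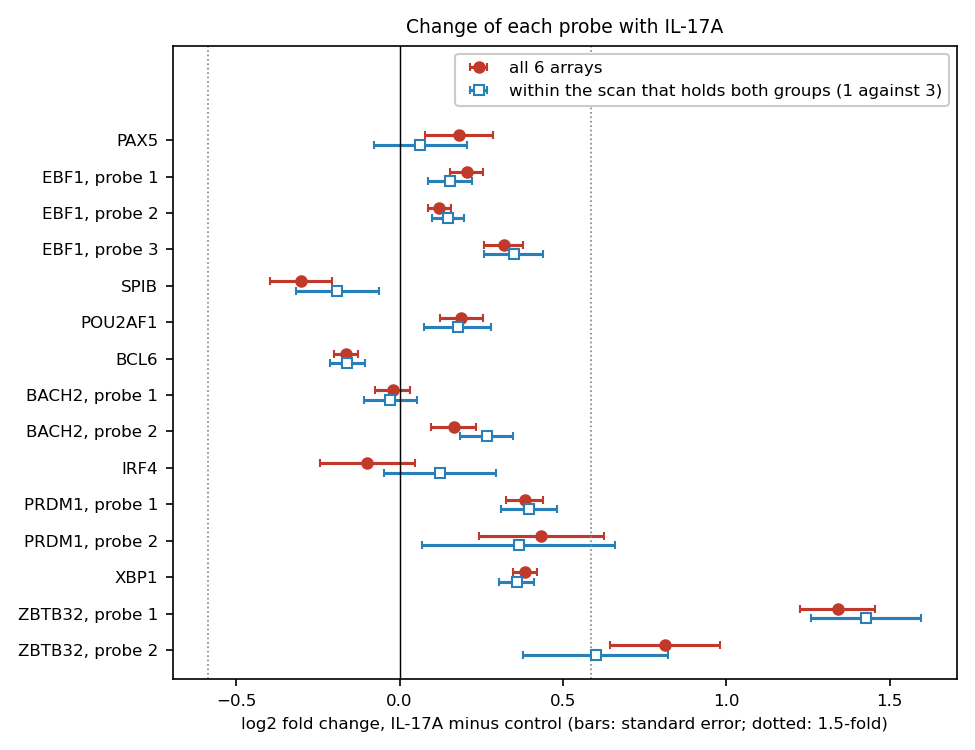
Log2 fold change of each of the 15 probes, IL-17A minus control (horizontal axis), with its standard error; filled circles use all 6 arrays, open squares the 1 IL-17A array and 3 controls of the first scan, and dotted lines mark 1.5-fold. Only the ZBTB32 probes, chosen for their rise, lie beyond the dotted lines, and IRF4 is the only probe whose points fall on opposite sides of 0.

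The genes around these factors were counted at 1 probe per gene, the brightest one tested, for which 4.37% of the 14747 tested named genes rose and 3.48% fell. Of 32 other B-lineage transcription factors, 2 rose and 2 fell, with a median log2 fold change of 0.08 against 0.0032 for all named genes. KLF2, which restrains B-cell activation and guides trafficking, fell by 0.27 (SE 0.04, adjusted p = 0.0327), and RUNX3 rose by 0.18 (SE 0.04, adjusted p = 0.0458). The other calls were ETS1, which rose by 0.33 (adjusted p = 0.0475), and BCL11A, which fell by 0.18 (adjusted p = 0.0470), both named after their values were seen.

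Of 20 B-cell surface and receptor genes that PAX5 or EBF1 activates, 10 were higher and 10 lower, and 1 passed the test. It was CXCR5, the receptor that draws B cells into follicles, which rose by 0.25 (SE 0.04, adjusted p = 0.0364). CD79A, a signaling chain of the B-cell receptor and a classic target of EBF1, had a difference of -0.17 (SE 0.04, adjusted p = 0.0629). The median of the list was 0.02.

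Germinal-centre genes were split in the same way, with 11 of 22 higher, 3 that rose, 0 that fell and a median of 0.0074. The DNA glycosylase NEIL1 rose by 0.31 (SE 0.05, adjusted p = 0.0327), and IRAG2, a membrane protein of the endoplasmic reticulum, rose by 0.34 (SE 0.05, adjusted p = 0.0327). GCSAM, named after its value was seen, rose by 0.23 (adjusted p = 0.0474).

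Of 19 tested plasma-cell genes, 1 rose and 0 fell, with a median of 0.04. TNFRSF13B (TACI), a receptor for BAFF and APRIL, rose from 4.88 ± 0.14 to 5.37 ± 0.09 (SD, n = 3 each), a difference of 0.48 (SE 0.09, adjusted p = 0.0403). SSR4, a subunit of the translocon-associated complex, had a difference of -0.19 (SE 0.04, adjusted p = 0.0525). Of the plasma-cell markers named earlier, SDC1 (CD138) had a difference of -0.21 (adjusted p = 0.0923) and CD38 one of 0.16 (adjusted p = 0.112). MZB1 had one of 0.13 (adjusted p = 0.288), TNFRSF17 one of 0.06 (adjusted p = 0.536) and JCHAIN one of -0.04 (adjusted p = 0.569).

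The secretory-pathway genes that XBP1 is known to activate were counted next. Of 20 measured, 15 were higher and 5 lower, with a median of 0.05, where 7509 of all 14747 named genes were higher. A single gene rose. It was DNAJB9, a cochaperone of the endoplasmic reticulum, which rose by 0.22 (SE 0.03, adjusted p = 0.0330). HERPUD1 had a difference of 0.25 (adjusted p = 0.0553). SEL1L and EDEM1 had differences of 0.27 (adjusted p = 0.0599) and 0.34 (adjusted p = 0.0615). SYVN1 had one of 0.04 (adjusted p = 0.619) and DNAJB11 one of -0.11 (adjusted p = 0.119). SEL1L, EDEM1, SYVN1 and DNAJB11 were named after their values were seen.

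Genes that BCL6 is known to repress had a median of 0.03, with 1 of 18 tested that rose and 0 that fell. CD69, an early activation antigen, rose from 7.31 ± 0.04 to 7.76 ± 0.06 (SD, n = 3 each), by 0.45 (SE 0.05, adjusted p = 0.0286). BCL2, the survival protein, had a difference of 0.19 (SE 0.04, adjusted p = 0.0556). PRDM1, itself a BCL6 target, is described above.

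Among 16 corepressors of BCL6 and PRDM1, 2 rose and 0 fell. NCOR1, which BCL6 recruits, rose by 0.24 (SE 0.04, adjusted p = 0.0367), and TLE3, of the Groucho family, rose by 0.17 (SE 0.04, adjusted p = 0.0495). Of 37 tested BTB zinc-finger genes, the family of BCL6 and ZBTB32, 2 rose and 1 fell, with a median of 0.08. ZBTB44 rose by 0.33 (SE 0.04, adjusted p = 0.0326) and ZBTB25 by 0.23 (SE 0.04, adjusted p = 0.0336), whereas ZBTB39, named after its value was seen, fell by 0.23 (adjusted p = 0.0457).

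Markers of other cell types were read on the same arrays. Of 12 T-cell markers 10 were tested, of which 7 were lower and 3 higher, and 2 fell, CD28 by 0.71 (SE 0.10, adjusted p = 0.0327) and CD3E by 0.46 (SE 0.08, adjusted p = 0.0401). CD2 was higher by 0.51 (SE 0.11, adjusted p = 0.0539), and CD3G and CD247 by 0.12 (adjusted p = 0.170) and 0.030 (adjusted p = 0.824). The summed linear signal of the list was 1098 to 1194 with IL-17A and 1289 to 1479 in the controls, without overlap. CD4, which is not particular to T cells, made up 77.5% to 82.0% of that sum, with a difference of -0.31 (SE 0.08, adjusted p = 0.0669), and the sum of the other genes was 240.1 to 261 with IL-17A and 267 to 280.4 without. None of the CD3 chains was at 0, and CD3G, CD247 and CD4 were named after their values were seen. In such bulk samples, fewer cells of a type and less RNA per cell cannot be told apart, and a part of these genes in the values of the identity factors was not tested.

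NK-cell markers (5 of 8 tested) had summed signals of 85.9 to 110 with IL-17A and 104 to 112 without. Those of myeloid markers (5 of 12 tested) were 152 to 160 and 172 to 219, and those of mesenchymal markers (4 of 10 tested) were 26.7 to 35.9 and 31.2 to 37.0. The myeloid sums thus lay apart and the other 2 overlapped. The genes of lowest p were KLRB1 (-0.41, adjusted p = 0.132) and NCR1 (-0.67, adjusted p = 0.145) of NK cells, ITGAM (-0.39, adjusted p = 0.206) and MARCO (-0.91, adjusted p = 0.176) of myeloid cells, and FBN1 (-0.27, adjusted p = 0.165) and NT5E (-0.53, adjusted p = 0.401) of mesenchymal cells. No gene of these 3 lists passed the test, and the myeloid genes CSF1R, CD68, S100A8, S100A9 and MPO were below the filter on dim signals.

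**Figure D4:**
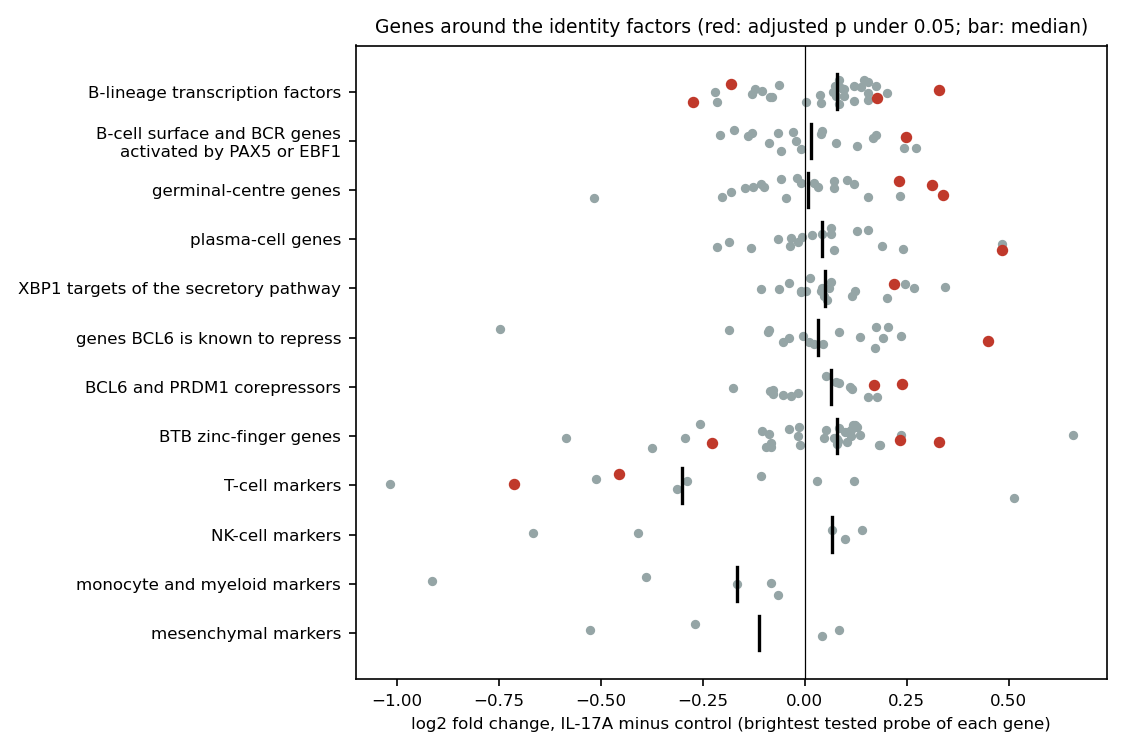
Log2 fold change, IL-17A minus control (horizontal axis), of each tested gene of the 12 lists around the identity factors; red points have an adjusted p under 0.05 and black bars are medians. The medians of the B-cell lists lie between 0.0074 and 0.08, and the T-cell marker list, at -0.30, lies farthest from 0.

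In all, 18 genes of the 12 lists changed at an adjusted p under 0.05. With the scan as a block 0 of them did, where 8 of all named genes rose and 23 fell by limma, and the number with an unadjusted p under 0.05 was then 4 to 7 in each of the 8 B-cell lists and 3281 of all 14747 named genes. The lists were chosen with earlier results of these data known, so their counts describe these arrays.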

How the data were processed

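RNA of 3 IL-17A and 3 control samples was measured on one-colour arrays, and groups and replicate numbers followed the sample titles. The deposited scanner files hold a linear intensity per spot, background-subtracted by the authors' extraction software (Agilent Feature Extraction 11.0.1.1), with flags. The authors also deposited log2 values, quantile normalized, with a floor of 2.32 to 2.33, used as an alternative.

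Control spots and 61 non-uniform values were left out, intensities under 1 were set to 1, and 43118 spots were averaged on the log2 scale into 34127 probes. Arrays were quantile normalized, following the study's methods. The flag "Detected" of the methods was read as the flags for a positive and significant signal and for one well above background, and 23945 probes (70.2%) detected on at least 3 of 6 arrays were tested. RefSeq accessions named 25771 probes (GRCh38.p14 gene names). Groups were compared with limma 3.58.1 in R 4.3.3, two-sided, without covariates, with Benjamini-Hochberg adjustment. This fit was checked on simulated arrays. With 3 arrays against 3, an exact permutation p cannot go below 0.1. The number of arrays limits the precision.

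Members and gene lists were chosen with earlier results of these data known. The text names all members and, from each list, calls of at least 1.5-fold and the other 2 genes of lowest p. For ZBTB32 it names the 5 genes nearest in pattern. Genes named outside this rule are marked, apart from the B-cell and plasma-cell markers. Alternatives were other normalization, background correction, filters, values, tests and blocks, and each array left out.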

Additional observations from a re-analysis of the deposited data

How the results depend on the processing

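Over the 17 alternatives, XBP1 and PRDM1 (brighter probe) kept their direction and an unadjusted p under 0.05 in 17 of 17, and an adjusted p under 0.05 in 9. The adjusted p was under 0.05 at 3 of the 13 probes other than ZBTB32, against 0 with no normalization between arrays, 6 with a variance trend, 0 with a replicate block, 0 with the scan as a block, and 0 to 2 with an array left out. None of the 13 passed 1.5-fold with an unadjusted p under 0.05 in any of the 17. Of all tested probes, 1818 had an adjusted p under 0.05 (58.3% higher), against 46 without normalization (45.7% higher), 3846 with a variance trend, 4 with a replicate block, 48 with the scan as a block (29.2% higher), and 2 to 983 with an array left out. Past 1.5-fold with an unadjusted p under 0.05 were 522, against 15 with normexp, 299 with probes detected on all 6 arrays, 978 with no filter and 375 by the methods' t-test, by which 1248 had an adjusted p under 0.05. Of the listed genes 18 were called, against 0 without normalization, 40 with a variance trend, 0 with either block and 0 to 7 with an array left out. The cause was not tested, except that leaving out an array lowers the number of samples. BACH2 (A_23_P30634) ranged from -0.057 to 0.0073 with an array left out (0.0073 without IL-17A replicate 2, 0.0041 without control replicate 1). IRF4 ranged from -0.21 to 0.064 with an array left out, turning without IL-17A replicate 2, and was 0.12 with the scan as a block. Same-numbered samples did not deviate together (r = -0.087, -0.0022 and -0.047, across probes), and pairs with unlike numbers had r from -0.048 to 0.078. These correlations cannot exclude a pairing of cultures, which the labels do not state, so the replicate block rests on shared numbers only. The 75th percentile scaling put 49.4% of calls on the higher side. ZBTB32, PAX5 and the dimmer PRDM1 probe were read at signals near background.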
